A study of Mus musculus with 47 samples.

Results

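Megakaryocyte and platelet genes were followed across the leukaemic spleens of 47 mice, 1 array per mouse. The set listed 32 genes. The annotation of the array named 29 of them, and Gp1ba, Serpine2 and Ptgs1 were unnamed here and not analysed. Each gene is read from 1 probe set, the brightest on average of those naming that gene alone, as for the 18193 genes of the whole table, and all 29 genes were among the 18178 that passed the filter on dim genes, a level above log2 5 in at least 9 arrays. Gucy1a3 is the older name of Gucy1a1.

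Every mouse carried the same 3 kinds of allele, in which a Sleeping Beauty transposon is moved by its transposase and mutates genes by insertion. The ubiquitous cre transgene was Tg(ACTB-cre)2Mrt, the transposase allele was Gt(ROSA)26Sortm2(sb11)Njen, and the transposon array was either TgTn(sb-T2/Onc2)6070Njen (26 mice) or TgTn(sb-T2/Onc2)6113Njen (21 mice). The diagnosis was undifferentiated myeloid leukaemia at the terminal stage. An insertion in Erg was marked for 26 mice (17 of line 6070 and 9 of line 6113; age label 49 to 97, median 74) and its absence for 21 mice (9 of line 6070 and 12 of line 6113; age label 32 to 89, median 54), and the unit of age was not given. There was no healthy spleen among the groups, so no level could be set against normal tissue. The sex labels, 25 female and 22 male, matched the sex-chromosome transcripts in 23 of 47 arrays and did not match them in 24, so every label below is the label of a column and may not be that of the tissue.

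Megakaryocytes are the large marrow and spleen cells that shed platelets. Early in the lineage, progenitors switch on Itga2b, the alpha chain of the fibrinogen receptor, and Pf4, a chemokine stored in alpha granules. Genes such as Ppbp, a second alpha-granule chemokine, and the subunits of the von Willebrand factor receptor rise later, as granules and platelet membranes are made. GATA and ETS factors are known regulators of many of these genes. In a spleen, RNA for these genes can come from megakaryocytes, from platelets held in the organ and from leukaemic cells that express part of the programme. In bulk RNA, fewer cells of a type and less RNA per cell cannot be told apart.

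The promoters of Pf4, Itga2b and Ppbp, the genes against which the others were read, are shown with those of Gp9, which moved with Ppbp, and Gp5, which moved with Itga2b. They run from 250 bases before to 50 after the first listed start of each gene, come from RefSeq (GRCm38.p6), and are in the direction of transcription. Capitals mark GATAA, the core of GATA motifs, and GGAAG, a form of the ETS core, on either strand, so that TTATC and CTTCC are also in capitals. Pf4 lies at chr5:90772185-90772484 (plus strand), Itga2b at chr11:102469834-102470133 (minus strand), Ppbp at chr5:90768268-90768567 (plus strand), Gp9 at chr6:87777820-87778119 (plus strand) and Gp5 at chr16:30310732-30311031 (minus strand).
Pf4: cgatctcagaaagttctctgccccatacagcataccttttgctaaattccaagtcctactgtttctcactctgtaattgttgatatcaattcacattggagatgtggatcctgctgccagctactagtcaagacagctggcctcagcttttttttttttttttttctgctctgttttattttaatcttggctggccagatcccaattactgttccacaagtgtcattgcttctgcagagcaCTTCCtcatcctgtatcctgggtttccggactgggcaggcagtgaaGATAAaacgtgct
Itga2b: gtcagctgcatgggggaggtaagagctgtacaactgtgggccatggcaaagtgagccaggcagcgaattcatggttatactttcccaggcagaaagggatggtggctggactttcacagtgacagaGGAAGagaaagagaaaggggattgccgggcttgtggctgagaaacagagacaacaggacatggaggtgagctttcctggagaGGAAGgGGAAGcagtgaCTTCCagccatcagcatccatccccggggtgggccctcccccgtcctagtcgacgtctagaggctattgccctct
Ppbp: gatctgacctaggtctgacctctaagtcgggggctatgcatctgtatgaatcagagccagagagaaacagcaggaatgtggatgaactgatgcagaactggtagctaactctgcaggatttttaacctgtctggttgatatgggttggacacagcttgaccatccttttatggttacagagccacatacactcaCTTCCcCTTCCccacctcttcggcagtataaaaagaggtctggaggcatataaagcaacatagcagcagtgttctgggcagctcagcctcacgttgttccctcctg
Gp9: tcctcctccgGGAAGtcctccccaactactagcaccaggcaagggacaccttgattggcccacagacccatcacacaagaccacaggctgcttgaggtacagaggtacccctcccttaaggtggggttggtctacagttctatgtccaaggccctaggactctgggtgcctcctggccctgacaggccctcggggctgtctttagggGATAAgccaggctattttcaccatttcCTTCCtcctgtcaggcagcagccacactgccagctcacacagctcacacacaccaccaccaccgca
Gp5: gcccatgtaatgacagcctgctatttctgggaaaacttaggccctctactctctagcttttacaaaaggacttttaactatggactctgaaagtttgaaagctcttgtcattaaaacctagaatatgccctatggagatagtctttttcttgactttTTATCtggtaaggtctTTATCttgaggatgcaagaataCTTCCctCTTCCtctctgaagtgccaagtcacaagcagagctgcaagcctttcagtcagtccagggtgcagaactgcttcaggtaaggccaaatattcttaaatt
Ppbp and Pf4 are neighbours on chromosome 5, with 0 protein-coding genes between their starts. A promoter was listed for 25 of the 29 genes. GATAA stood in 10 of the 25 (40.0%), against 25.8% of 27025 promoters of all genes, and GGAAG in 18 (72.0%), against 71.1%. Both stood in 6 (24.0%), against 17.4%. Of the 5 promoters shown, those of Pf4, Gp9 and Gp5 held GATAA, and those of Itga2b and Ppbp held only the ETS core, 4 and 2 times. These matches describe letters in a window and were not tested as binding sites.

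The genes of the set were among the more variable genes of these tumours. The SD over the 47 arrays was above the median SD of all tested genes (0.104 log2 units) for 28 of the 29, with Itga2 as the exception, and the median SD of the 29 was 0.567. Values here are log2 RMA values; the lower and upper quartiles of all probe sets were 5.08 and 5.69, so a value near 5 is close to the floor. Because probe sets differ in how brightly they bind, levels are compared between arrays and not between genes. A level above log2 7 was reached in at least 1 array by 21 of the 29 genes, against 23.1% of tested genes. The 8 that never reached it were Itga2, F2rl2, Gp6, Trpc6, P2ry12, Slc6a4, P2rx1 and Gucy1a3, and their differences are compressed.

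**Figure D1:**
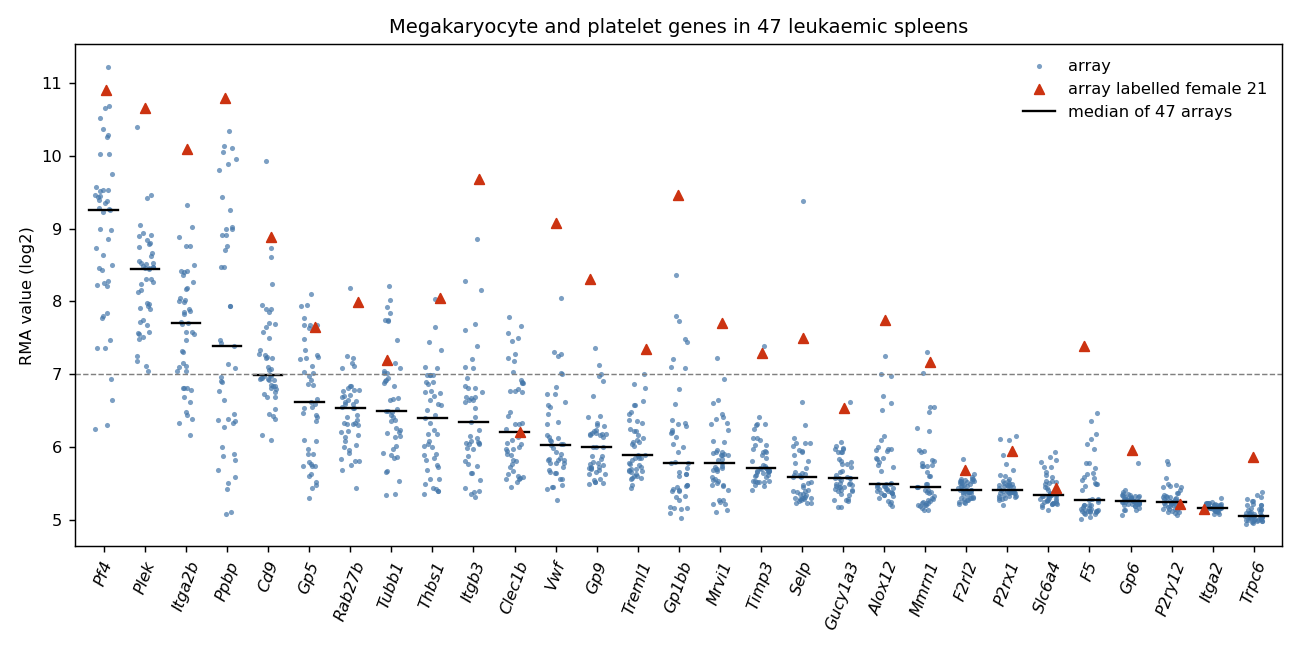
Each point is 1 of the 47 arrays, each black line the median, the vertical axis the log2 RMA value and the dashed line log2 7; genes are ordered by median. Plek lies above the dashed line in all 47 arrays, Ppbp spreads from 5.07 to 10.80, and the red triangles, the array labelled female 21, are the highest points of 14 genes.

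One array stood apart. The array labelled female 21 (Erg insertion, line 6113, age label 83) had the highest value of 14 of the 29 genes, Itga2b, Gp1bb, Gp9, Gp6, Ppbp, Vwf, Treml1, Itgb3, Plek, Thbs1, Mrvi1, Trpc6, F5 and Alox12. It had the highest value of 2.23% of all tested genes. The arrays labelled female 18 and male 16 were each highest for 4 more. Counts of genes past a threshold with the reference genes and marker means are therefore also given without female 21, except in fits with blood cell marker means as covariates.

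Each of the early genes was above log2 7 in most of these spleens, which does not rank them against genes read by other probe sets. Pf4 had its lowest level at 6.25, its median at 9.27 and its highest at 11.23, and 43 of 47 arrays were above 7. Itga2b ran from 6.16 through a median of 7.70 to 10.10, with 36 arrays above 7. Both spread without a gap, and the array labelled female 23 was lowest for Itga2b and next to lowest for Pf4.

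Of the late genes, Ppbp had the widest range of the 29 and the 3 measured subunits of the von Willebrand factor receptor differed in which arrays were high. Ppbp ran from 5.07 through a median of 7.38 to 10.80, a range of 5.73 log2 units, and 26 arrays were above 7. Gp1bb, one of the subunits, ran from 5.02 through 5.78 to 9.47, with 9 arrays above 7. Gp9, its partner subunit, ran from 5.49 through 6.00 to 8.31, with 4 arrays above 7. For both, female 21 was highest and male 16 was among the 4 highest. Gp5, the other subunit of that receptor, ran from 5.30 through 6.62 to 8.10, with 18 arrays above 7. Female 18 was highest for Gp5 and next to highest for Gp1bb (8.37), and female 21 was at 7.66, while female 8, next to highest for Gp5 at 7.96, had Gp1bb at 5.99.

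The remaining receptors showed similar few-array patterns. Itgb3, the beta chain that pairs with Itga2b, ran from 5.31 through 6.34 to 9.69, with 10 arrays above 7. Clec1b, the podoplanin receptor CLEC-2, ran from 5.45 through 6.20 to 7.79, with 9 arrays above 7, and Treml1, a receptor of the alpha-granule membrane, from 5.43 through 5.88 to 7.35, with 2. Gp6, the collagen receptor, and Itga2, a chain of the other collagen receptor, reached at most 5.96 and 5.30.

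Of the granule genes, Vwf, the adhesive protein that bridges platelets to collagen, ran from 5.27 through 6.03 to 9.08. Selp, the adhesion molecule P-selectin, had a median of 5.59 and was above 7 in 2 arrays only, male 16 at 9.38 and female 21 at 7.50. Thbs1 (thrombospondin), Mmrn1 (a binder of factor V) and F5 (factor V) were above 7 in 7, 3 and 1 arrays, and Timp3, an inhibitor of metalloproteinases, in 2. Vwf, Selp, Mmrn1, Thbs1 and Timp3 are also made by endothelium or stroma.

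Plek (pleckstrin, a protein kinase C substrate) was the only gene above 7 in every array, from 7.04 through 8.45 to 10.66. Cd9, a tetraspanin, was above 7 in 23 arrays and ran from 6.10 through 6.99 to 9.93, and Tubb1, the platelet beta tubulin, in 14, with a highest level of 8.21. Rab27b, which serves granule secretion, was above 7 in 7 arrays. Alox12, the platelet lipoxygenase, and Mrvi1, a target of cGMP signalling, were each above 7 in 2. Plek and Cd9 are also expressed in other blood cells.

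Itga2b and Pf4 rose and fell together, and Ppbp did not follow Itga2b. Pearson's r of Itga2b with Pf4 was 0.70 and Spearman's rho 0.70 over the 47 arrays (permutation test, 100000 resamples, two-sided, p = 1e-05 for each, the smallest it can give), and leaving out the 2 arrays most distant from the Itga2b median gave 0.69, leaving out female 21 gave 0.67. Within the arrays whose tumour identifier ends in 9, r was 0.77 (33 arrays), and within those ending in 7 it was 0.79 (11 arrays). For Pf4 with Ppbp r was 0.28 (permutation p = 0.054) and rho 0.24 (p = 0.098), with 0.24 when the 2 most distant arrays were left out, and 0.14 and 0.46 in the same identifier groups. For Itga2b with Ppbp r was -0.04 (permutation p = 0.796) and rho -0.10 (p = 0.493), with -0.24 when the 2 most distant arrays were left out, -0.18 without female 21, and -0.04 and 0.04 in the identifier groups. The raw p-values belong to these 3 pairs and were not adjusted.

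**Figure D2:**
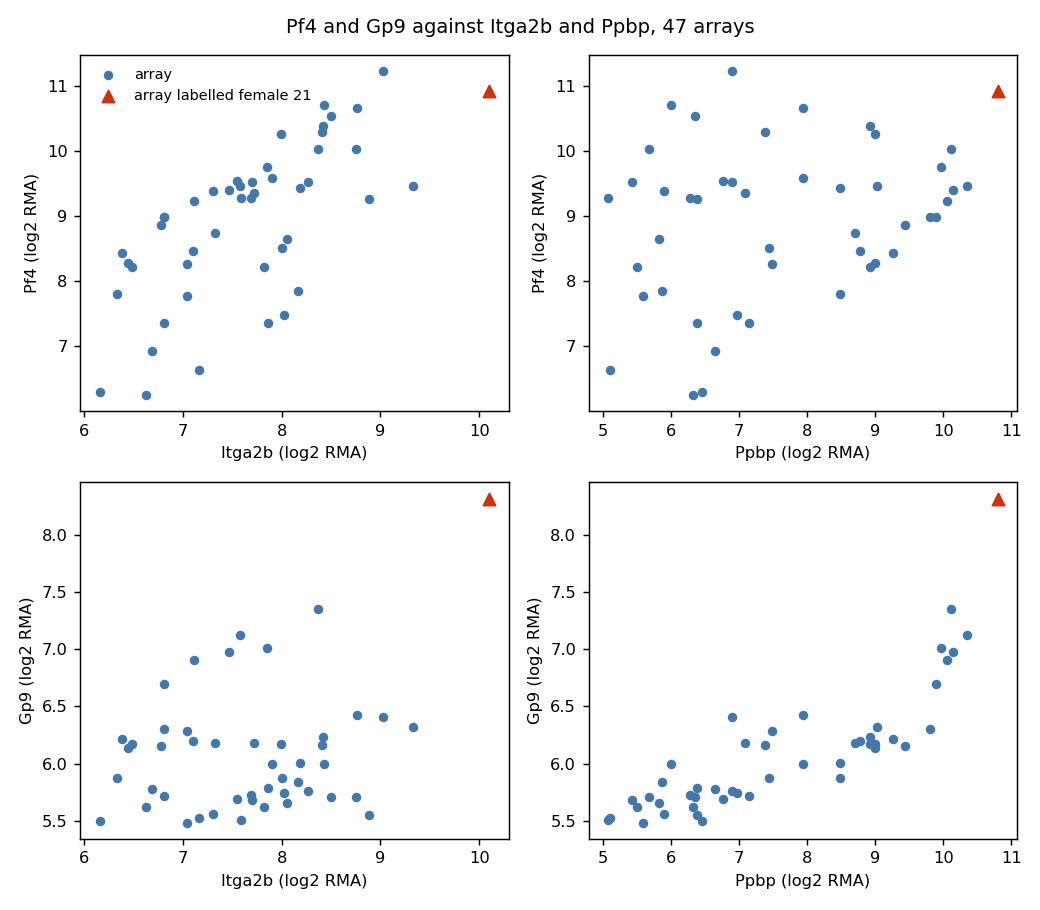
Each point is 1 of 47 arrays, with log2 RMA levels on both axes, and the triangle is the array labelled female 21. Pf4 climbs with Itga2b (r 0.70) more closely than with Ppbp (r 0.28). Gp9 climbs with Ppbp and, away from female 21, hardly with Itga2b taken alone (r 0.07 without that array).

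Of the 406 pairs among the 29 genes, 363 had r above 0, 135 had r of at least 0.5 and 21 of at least 0.8, with a median of 0.39. Without female 21 the median was 0.29, and 113 pairs reached 0.5 and 20 reached 0.8. The 5 closest pairs, which were chosen for their r, joined Gp9 with Alox12 (r 0.95, rho 0.91), Gp1bb with Gp9 (0.92, 0.90), Gp1bb with Itgb3 (0.91, 0.82), Gp1bb with Alox12 (0.91, 0.93) and Gp9 with Mmrn1 (0.88, 0.86). With the 2 most distant arrays left out their r lay between 0.83 and 0.95, and within the identifier groups between 0.73 and 0.95. Gp1bb and Gp9 form 1 receptor complex with Gp5. The 5 lowest r, also chosen for their r, all contained Gp5, with Ppbp (r -0.39, rho -0.38), Itga2 (-0.36, -0.35), P2ry12 (-0.31, -0.38), Clec1b (-0.26, -0.27) and P2rx1 (-0.26, -0.19). These 10 pairs are a description and were given no test. Without the 2 arrays farthest from the Gp5 median these r lay between -0.40 and -0.25. They lay between -0.45 and -0.11 in the identifier group ending in 9, whereas in the group ending in 7 the r of Gp5 with Itga2 was 0.43.

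**Figure D3:**
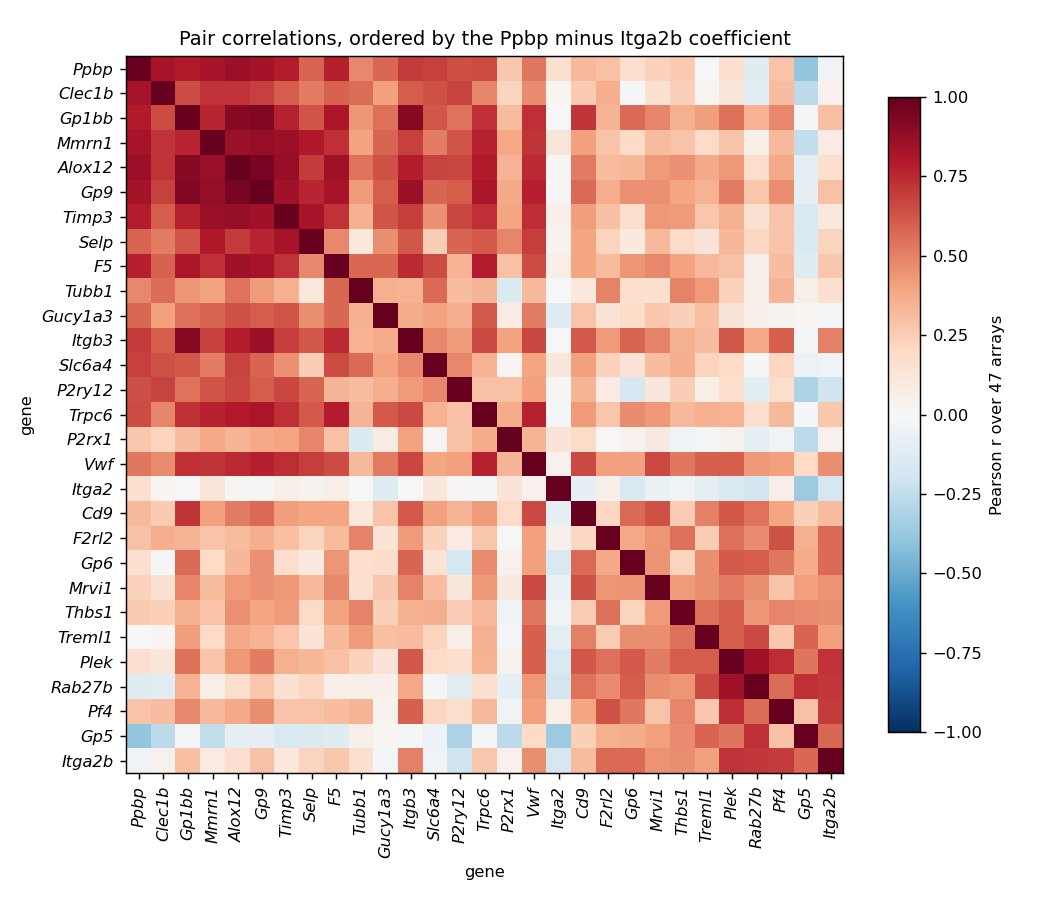
Colour gives Pearson's r over 47 arrays for each pair of the 29 genes, red above 0 and blue below 0, with genes ordered from those nearest Ppbp to those nearest Itga2b in the joint fit. A dark block runs from Ppbp to F5 (Gp9 with Alox12 reaches 0.95), and Gp5 with Ppbp is at -0.39. At the other end Plek, Rab27b, Pf4 and Gp5 each go with Itga2b, though Gp5 did not pass with Pf4.

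How far each gene followed Pf4 was tested by limma over all genes, as a slope in log2 units per log2 unit of Pf4. Of the 28 other genes 9 rose with Pf4 past an adjusted p of 0.05 and 0 fell, against 2.69% of all genes that rose and 1.16% that fell (3.85% either way); the median slope was 0.17 over the 28 and -0.0019 over all genes. Plek (slope 0.46, SE 0.06, adjusted p 4.89e-06) and Itga2b (0.50, SE 0.08, adjusted p 4.84e-05) ranked 8 and 13 among 18177 genes. F2rl2 (the thrombin receptor PAR3), Itgb3, Rab27b, Gp6, Thbs1, Gp1bb and Gp9 also rose. Without female 21 the count was 6, against 2.2% of all genes that rose (3.03% either way), the median slope was 0.12, and Gp1bb, Gp9 and Thbs1 no longer passed (adjusted p 0.072, 0.0854 and 0.057). The Ppbp slope of 0.39 (SE 0.19, adjusted p 0.291) did not pass.

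With Itga2b as the reference, 11 of 28 genes rose and 0 fell, against 7.79% and 5.07% of all genes (12.9% either way); the median slope was 0.14, against 0.0015 over all genes. Plek (0.63, SE 0.09, adjusted p 3.43e-06), Rab27b (0.44, SE 0.07, adjusted p 9.3e-06), Pf4 (0.97, SE 0.15, adjusted p 1.26e-05) and Gp5 (0.54, SE 0.11, adjusted p 0.000914) led. F2rl2, Gp6, Itgb3, Thbs1, Vwf, Mrvi1 and Treml1 followed. Without female 21, 6 rose and 0 fell, against 7.87% and 5.51% of all genes, the median slope was 0.057 with 18 of 28 genes above 0 (23 of 28 with that array), and Itgb3, Thbs1, Vwf, Mrvi1 and Treml1 no longer passed, with adjusted p from 0.0638 for Itgb3 to 0.219 for Treml1. Clec1b had a slope of 0.03 (SE 0.11) and Ppbp one of -0.07 (SE 0.28).

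With Ppbp as the reference, 15 of 28 genes rose and 1, Gp5, fell, against 12.3% and 18.8% of all genes (31.1% either way); the median slope was 0.11, against -0.0033 over all genes. Alox12 (0.30, SE 0.03, adjusted p 1.71e-11), Gp9 (0.28, SE 0.03, adjusted p 5.87e-10), Clec1b (0.33, SE 0.03, adjusted p 6.09e-10) and Mmrn1 (0.27, SE 0.03, adjusted p 6.55e-10) ranked 6, 8, 10 and 11 among 18177 genes. Gp1bb, Timp3, F5, Itgb3, Slc6a4 (the serotonin transporter), Trpc6 (a calcium channel), P2ry12 (the ADP receptor), Selp, Gucy1a3 (a subunit of the nitric oxide receptor), Vwf and Tubb1 also rose. Gp5 fell by 0.19 per unit (SE 0.07, adjusted p 0.0249). Without female 21, 15 rose and 1 fell, against 12.8% and 20.3% of all genes, and the median slope was 0.090.

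By role, the 3 measured subunits of the von Willebrand factor receptor divided: with Ppbp 2 rose and 1 fell, with Pf4 2 rose and with Itga2b 1 did. For these counts and those below, 12.3% of all genes rose and 18.8% fell with Ppbp. The shares were 2.69% and 1.16% with Pf4, and 7.79% and 5.07% with Itga2b. Of the integrins and the collagen and podoplanin receptors 2 of 6 rose with Ppbp (Itgb3 and Clec1b), 3 of 6 with Pf4 and 3 of 5 with Itga2b. Of the 3 nucleotide and thrombin receptors P2ry12 rose with Ppbp and F2rl2 with Pf4 and with Itga2b, and P2rx1, an ATP-gated channel, with none of them. The granule genes other than Ppbp rose with it in 5 of 7, against 1 of 7 with Pf4 and 3 of 8 with Itga2b, each count leaving out the gene it is read against. The genes of lipid, nitric oxide and calcium signalling rose with Ppbp in 4 of 5, with Pf4 in 0 and with Itga2b in 1. Of the 4 genes of shape and secretion, 1 (Tubb1) rose with Ppbp, 2 (Plek and Rab27b) with Pf4 and the same 2 with Itga2b. Of the late genes as a list, 8 of 11 rose and 1 fell with Ppbp, against 3 of 12 that rose with Pf4 and 3 of 12 with Itga2b. The role counts include female 21. Without it Gp1bb, Gp9 and Thbs1 no longer passed with Pf4, nor Itgb3, Thbs1, Vwf, Mrvi1 and Treml1 with Itga2b. The calls with Ppbp stayed.

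Whether a gene followed Ppbp more than Itga2b was tested directly, with both levels, each scaled to its SD, in 1 limma fit, an analysis added after seeing the data. Past an adjusted p of 0.05, the Ppbp coefficient was the higher for 11 of 27 genes and the Itga2b coefficient for 4. The shares of all genes were 13.2% and 19.3%. Whether it passed or not, the difference was above 0 for 18 of the 27. The 11 were Clec1b (difference 0.51 log2 units per SD, SE 0.08, adjusted p 8.8e-07), Gp1bb (0.45, SE 0.10, adjusted p 0.000303), Mmrn1, Alox12, Gp9, Timp3, F5, Gucy1a3, Slc6a4, P2ry12 and Trpc6. The 4 were Gp5 (-0.75, SE 0.12, adjusted p 3.18e-06), Pf4 (-0.48, SE 0.16, adjusted p 0.0172), Rab27b (-0.43, SE 0.08, adjusted p 2.32e-05) and Plek (-0.40, SE 0.10, adjusted p 0.00156). Without female 21 the same 11 and the same 4 passed, against 13.3% and 19.2% of all genes. Some genes followed both, with coefficients above 0 that each passed. These were Gp1bb, Gp9, Alox12, F5 and Trpc6 of the 11, Pf4 of the 4, and Itgb3, Vwf and F2rl2. Without female 21 they were Gp1bb, Gp9, Clec1b, Pf4, Itgb3, Vwf and F2rl2. In that fit the Itga2b coefficient was 0.15 (SE 0.04, adjusted p 0.0198) for Clec1b and 0.11 (SE 0.03, adjusted p 0.0254) for Gp9. With all arrays Itgb3 had coefficients of 0.50 (SE 0.07) for Itga2b and 0.67 (SE 0.07) for Ppbp. Its difference did not pass (0.17, SE 0.09, adjusted p 0.151).

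**Figure D4:**
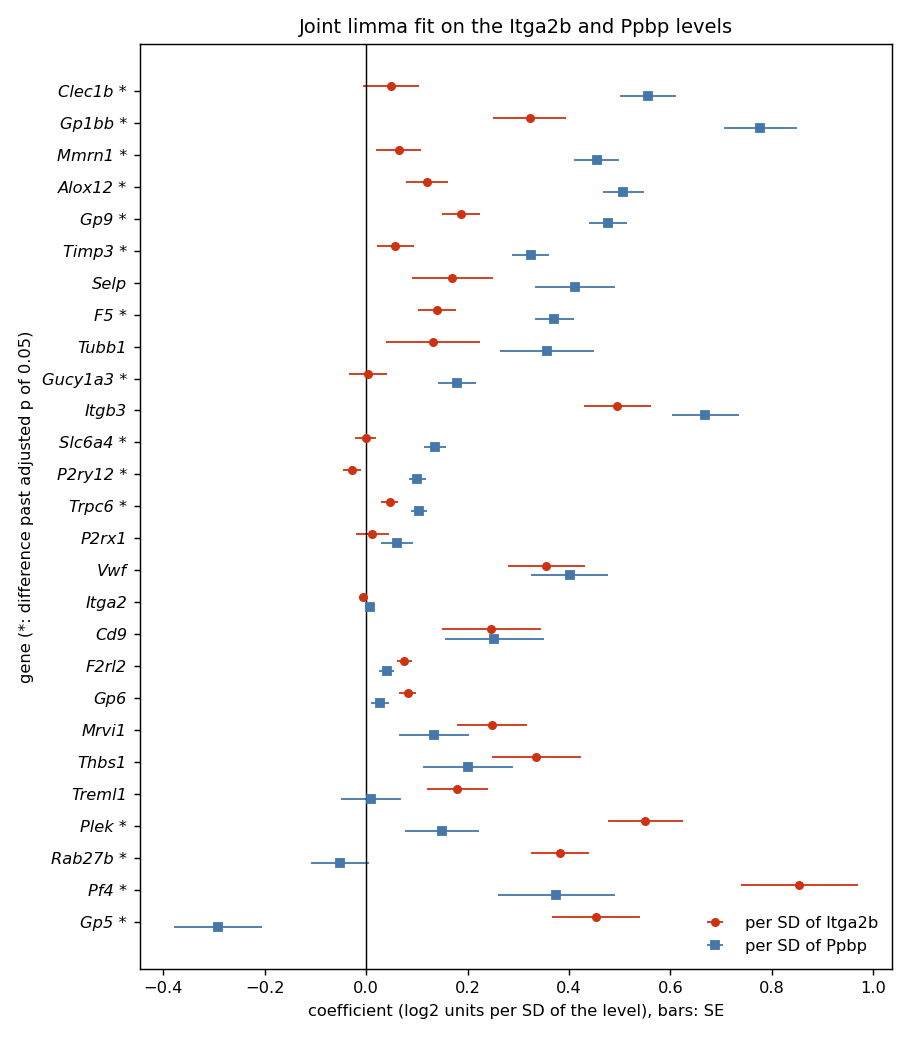
Points give the coefficient of each gene on the Itga2b level (red circles) and the Ppbp level (blue squares) in 1 fit over 47 arrays, in log2 units per SD, with bars of 1 SE and an asterisk where the difference passed an adjusted p of 0.05. Clec1b has a Ppbp coefficient of 0.56 beside an Itga2b coefficient of 0.05, and Gp5 has -0.29 beside 0.45. Without the array labelled female 21, which is not drawn, the Itga2b coefficient of Clec1b was 0.15 (SE 0.04).

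The genes that moved with Ppbp also moved with markers of other blood cells. Over the 47 arrays the Ppbp level had an r of 0.70 (rho 0.69) with the mean of 13 monocyte and macrophage markers, 0.65 (0.76) with that of 14 neutrophil markers and 0.73 (0.66) with that of 9 B cell markers, given as a description. Itga2b had an r of -0.12, 0.22 and -0.44 with the same means. The summed level of the marker lists, as a mean per gene, ran from 6.28 through 6.78 to 7.59 for monocytes and macrophages, with 2 of 13 markers above 7 in every array. It ran from 5.25 through 6.04 to 8.62 for neutrophils and from 5.17 through 5.55 to 7.75 for B cells, with 0 markers above 7 in every array in either list. A slope on the monocyte and macrophage mean passed for 16 of 29 genes that rose and 1, Gp5, that fell, against 12.9% and 16.5% of all genes, and one on the neutrophil mean for 14 that rose and 0 that fell, against 7.45% and 14.7%. Without female 21, 15 rose and 1 fell with the first mean (12.9% and 16.7% of all genes) and 12 rose and 0 fell with the second (7.89% and 15.7%).

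With the monocyte and macrophage, neutrophil and B cell means as covariates, also added after seeing the data, 6 genes rose with Ppbp, against 17 of 18177 genes (0.0935%) that rose and 2 (0.011%) that fell. They were Gp9 (slope 0.37, SE 0.05, adjusted p 7.43e-05), Alox12 (0.31, SE 0.05, adjusted p 0.005), Gp1bb (0.52, SE 0.10, adjusted p 0.0114), Itgb3 (0.49, SE 0.10, adjusted p 0.0265), Mmrn1 (0.27, SE 0.06, adjusted p 0.0265) and Trpc6 (0.09, SE 0.02, adjusted p 0.0439). Clec1b had a slope of 0.25 (SE 0.07, adjusted p 0.149) and Gp5 one of 0.07 (SE 0.13, adjusted p 0.897) in that fit. The other 11 genes that rose were Fhl1, Lgals3bp, Oxsm, Dusp3, Spic, Gnaz, Myl12a, Proser2, Slc35d3, Kif1b and Ttc7b, of which Spic is itself one of the monocyte and macrophage markers, and Cemip2 and Ptov1 fell. With the same covariates 9 genes of the set rose with Pf4 (5.8% of all genes) and 15 with Itga2b (5.97%). Gp9 was among the 15 (slope 0.31, SE 0.07, adjusted p 0.004), whereas Clec1b did not pass with Itga2b (0.21, SE 0.08, adjusted p 0.109). These covariate fits were not repeated without female 21. Trpc6 is near the floor, and its highest level, 5.86, was in that array.

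Markers of stroma and red cells were set beside the genes in the same way. With the mean of 12 fibroblast and smooth muscle markers 13 of 29 genes rose and 0 fell, against 4.22% and 6.07% of all genes (10.3% either way), but without female 21 only 5 rose and 1 fell, against 5.44% and 8.29%. With the mean of 17 endothelial markers Gp5, Rab27b and Treml1 rose and P2rx1 fell, against 7.16% and 4.53%, and 3 rose and 1 fell without female 21, against 7.03% and 4.41%. With the mean of 14 erythroid markers Gp5 rose and Selp, P2ry12 and P2rx1 fell, against 11.2% and 11.5%. Without female 21, 1 rose and 5 fell with the erythroid mean, Mmrn1 (adjusted p 0.0386) and Timp3 (0.017) in addition, against 11.1% and 11.5%. The endothelial mean ran from 5.46 through 5.75 to 5.95, the stromal from 5.52 through 5.96 to 6.63 and the erythroid from 6.04 through 8.30 to 9.30. The part of any of these cells in the results was not tested.

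Regulators of the lineage were read against the same reference genes. Of 14 megakaryocyte regulators measured, 6 rose and 1 fell with Itga2b, against 7.79% and 5.07% of all genes: Nfe2 (slope 0.88, SE 0.12, adjusted p 2.28e-06), which drives late platelet genes, Gata1 (0.64, SE 0.11, adjusted p 7.54e-05), Tal1 (0.59), Lyl1, Zfpm1 (a GATA1 partner) and Gfi1b rose, and Ikzf1 fell by 0.33 (SE 0.06, adjusted p 0.00042). With Pf4 4 rose (Tal1, Lyl1, Nfe2 and Mef2c) and Ikzf1 fell, against 2.69% and 1.16%. With Ppbp 3 rose and 7 fell, against 12.3% and 18.8%: Fli1 (0.33, SE 0.05, adjusted p 6.96e-06), an ETS factor, Mef2c and Meis1 rose, and Gata2 fell by 0.40 (SE 0.07, adjusted p 1.6e-05), Gata1 by 0.26 (SE 0.06, adjusted p 0.00153), Nfe2 by 0.30 and Zfpm1 by 0.18, followed by Erg, Gfi1b and Etv6. The monocyte and macrophage, neutrophil and B cell means were then added as covariates. In that limma fit 0 of the 14 regulators passed with Ppbp, where 0.0935% of all genes rose and 0.011% fell. The Ppbp slopes of Gata1 and Nfe2 were 0.08 (SE 0.11, adjusted p 0.862) and 0.10 (SE 0.14, adjusted p 0.869). The same 7 passed with Itga2b. Those means were closer to Ppbp than to Itga2b, so the counts with Ppbp and with Itga2b cannot be compared evenly. Without female 21 all 7 calls with Itga2b and all 10 with Ppbp were kept, and 4 of the 5 with Pf4, Mef2c being lost.

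Other platelet genes were counted likewise, and the shares of all genes that rose and fell were 2.69% and 1.16% with Pf4, 7.79% and 5.07% with Itga2b, and 12.3% and 18.8% with Ppbp. Of 10 further receptors 3 rose with Pf4 and 5 with Itga2b, P2ry1 (an ADP receptor), F2r and F2rl3 (thrombin receptors) among both, while 2, Tbxa2r (the thromboxane receptor) and Cd226, rose and 2, Icam2 and F2r, fell with Ppbp, near the shares of all genes. Of 14 further granule genes 2 rose with Pf4 (F13a1 and Vps33b) and 5 with Itga2b, led by Unc13d, Srgn, Stx11 and Vps33b, whereas with Ppbp 5 rose, led by Clu, Pdgfb, F13a1 and Rab27a, and 4 fell (Unc13d, Tgfb1, Vps33b and Srgn). Of 23 further signalling and skeleton genes 3 rose with Pf4 (Rgs18, Rap1b and Nrgn), 8 with Itga2b (Rgs18, Nrgn, Fermt3 and Rap1b with the smallest p) and 12 with Ppbp (Rasgrp2, Plcg2, Gucy1b1 and Gng11 with the smallest p), and Fermt3 (kindlin-3) fell with Ppbp by 0.20 (SE 0.04, adjusted p 0.000125). With the 3 blood cell means as covariates, 0 genes of these 3 lists passed with Ppbp, against 0.105% of all genes. With Itga2b 4 receptors, 5 granule genes and 9 signalling and skeleton genes rose, against 5.97% of all genes. Here too the means were closer to Ppbp, so the counts with Ppbp and with Itga2b cannot be compared evenly. Without female 21 all 26 calls of the 3 lists with Ppbp were kept, and 15 of 18 with Itga2b.

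Outside the set, the genes most like Pf4 by r over the 47 arrays were Rgs18 (r 0.87), Aftph, Rap1b, Nlrx1, Myct1, Mtmr14, Ufsp1 and Cish (0.73). Those most like Itga2b were Ecm1 (0.88), Rgp1, Pim1, Clec4e, Tmem158, Madd, Treml2 and Rit1 (0.76), and those most like Ppbp were Rasgrp2 (0.88), Fhl1, Tpm4, Mfap3l, Hmgn3, Plcg2, Plac8 and Vav3 (0.81).

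None of the label comparisons passed the threshold for any gene of the set. Itga2b averaged 7.74 ± 0.90 (SD, n = 26) with an Erg insertion label and 7.60 ± 0.84 (SD, n = 21) without, Pf4 8.89 ± 1.28 and 9.03 ± 1.14, and Ppbp 7.31 ± 1.76 and 8.08 ± 1.44, so the groups overlapped. By limma 0 of 18178 genes differed by Erg label (0%; 666 at an unadjusted p under 0.05), by line (0%; 540), by sex label (0%; 460), by age label (0%; 688) or in the product of Erg label and line (0%; 1286). For the Erg label the smallest p among the 29 genes belonged to Treml1 (0.33 higher with the insertion label, SE 0.12), Rab27b (0.31, SE 0.16) and Gp5 (0.33, SE 0.24), all with an adjusted p of 0.999; the median difference was 0.0097 over the set and 0.0016 over all genes. In line 6113 against 6070 it was 0.12 over the set, with 26 of 29 genes above 0, against -0.0027 over all genes. Itga2 (0.03), Gp9 (0.31, SE 0.17) and Timp3 (0.22, SE 0.12) had the smallest p, with adjusted p of 0.999. All arrays of line 6113 had a tumour identifier ending in 9, and every array with another ending was of line 6070. Line and identifier are thus partly tied, and the genes of the set are correlated. Treml1 (0.17), Gucy1a3 (-0.13) and Pf4 (0.47, SE 0.35) led for sex label, female minus male, and Pf4 (0.02 per unit of age), Mrvi1 (-0.01) and Cd9 (-0.01) for age, all with an adjusted p of 1. In the product of Erg label and line, the estimate was above 0 for 27 of 29 genes with a median of 0.24, against 0.02 over all genes. Gp5 (1.13, SE 0.46, adjusted p 0.684), Itga2 (-0.05) and Mrvi1 (0.64, both adjusted p 0.703) had the smallest p. The 9 arrays with the insertion label and line 6113 include female 21 and male 16, highest for 14 and 4 of the genes. The estimates are not given without them. Since 24 of 47 sex labels did not match the Xist level of their arrays, these comparisons may not describe the tissues.

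**Figure D5:**
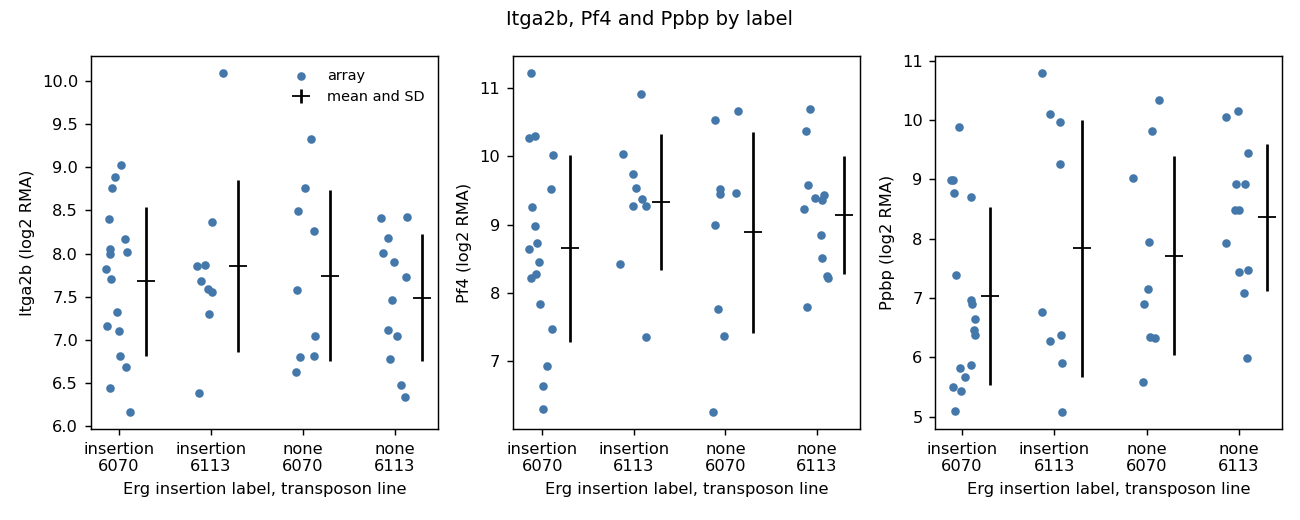
Points are arrays by Erg insertion label and transposon line (17, 9, 9 and 12 arrays), the vertical axes log2 RMA levels, and bars the mean with 1 SD. The groups overlap for Itga2b, Pf4 and Ppbp, whose means for Ppbp run from 7.03 to 8.36.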

How the data were processed

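RNA of each leukaemic spleen was hybridised to an Affymetrix Mouse Genome 430 2.0 array after 3′ in vitro transcription, per the labels' protocols. The deposited table holds log2 values that the authors made with RMA (affy, R 2.15), per the submitters' processing notes; RMA normalises quantiles between arrays, so a change shared by most genes is removed. Values of 45101 probe sets were used as deposited. The number of arrays limits the precision. No technical replicates were made, per the series' design text.

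Probe sets naming 1 gene (34945) were kept, and 932 with several and 9160 unnamed ones were left out, with 64 controls. For 14 of the 29 genes there were several probe sets: 20 of 21 dimmer ones had r above 0.5 with the one kept, and that of Mmrn1 had 0.21. Slopes and label differences were fitted with limma 3.58.1 (lmFit, eBayes) in R 4.3.3 over all tested genes, Benjamini-Hochberg adjusted, with a threshold of 0.05. Label fits held the other labels as covariates (Erg, line and sex), and slopes had none. A reference gene was left out of its own fit, and marker means were of standardised values. The procedure was tested on simulated data. Correlations of the 3 reference pairs used permutation tests in Python 3.11.15.

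The genes, lists and tests were chosen with earlier results of these data known. Named genes follow a rule: all listed genes; outside them, the 8 closest to each reference gene and, of each list, the 4 with the smallest adjusted p in each direction; the 3 pairs of reference genes and the 5 highest and 5 lowest r; for labels, the 3 smallest p. The genes left in the covariate fit were named after their values were seen.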

Additional observations from a re-analysis of the deposited data

How the results depend on the processing

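Counts below are of genes of the set past the threshold in either direction. The choice of the most variable probe set and of no filter changed no call of a gene with Pf4, Itga2b or Ppbp, nor did centring the arrays. The identifier number as a block and the labels as covariates each lost 1 call with Pf4, 0 with Itga2b and 1 with Ppbp. Restricting to the 11 arrays whose identifier ends in 7 left 1 gene with Pf4 and 0 with Itga2b, Ppbp or the endothelial, stromal, erythroid, monocyte and macrophage or neutrophil means; fewer arrays were fitted. Without the 2 arrays farthest from the median the count was 7 with Itga2b, 2 with the endothelial, 4 with the stromal and 9 with the erythroid mean; the cause was not tested. Without the array labelled female 21 it was 6 with Itga2b and 6 with the stromal mean, and 6 against 4 with the erythroid mean. A filter at log2 6, which leaves fewer genes to test, gave 8 with the stromal and 11 with the monocyte and macrophage mean, centring gave 8 with the stromal mean, and the arrays ending in 9 gave 2 with the endothelial mean. Lineage means as covariates gave 6 with Ppbp and turned the slope of Gp5 to 0.0722. Among the arrays ending in 7 the Ppbp slopes of Tubb1 and Vwf were -0.0632 and -0.0264, and the correlation of Itga2b with Ppbp was 0.0433. Neither label result was called: the Erg difference of Gp5 was -0.19 among arrays whose sex label matched, and the age slope of Cd9 was 0.0016 in arrays ending in 9 and 0.0026 among matching arrays. No paired analysis was possible because the replicate numbers only name the arrays and each array is a different mouse. Levels near the floor limit what can be seen for the 8 genes that never passed log2 7.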
